A study of Mus musculus with 62 samples.

Results

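The genes described here are 35 mouse genes of glycolysis and of the response to low oxygen, taken as a fixed list of symbols and looked up by symbol in every deposited expression table. All 35 were found and tested in every comparison, among 34008 genes with an entry in all tables. The study measured messenger RNA in 62 samples of bladder tissue and BBN963 cells. The tissue came from wild-type mice. Its tumour samples, which the deposited tables mark as BBN and the series calls basal tumours, were treated for 1 month or 5 days with rosiglitazone plus trametinib (4 samples at each time) or with vehicle, an aqueous cellulose and Tween solution with DMSO (3 samples at each time). Bladders labelled as without BBN, a bladder carcinogen, and with no treatment gave 3 further samples. The length of BBN exposure is not stated in the sample labels, but the deposited tables of the tumours carry the mark 5MBBN, which reads as 5 months. BBN963 is a line of basal bladder cancer cells, labelled C57bl/6 wild type. In the first of 2 experiments on these cells, rosiglitazone plus trametinib, trametinib, rosiglitazone and the solvent control DMSO had 5 samples apiece, all taken at 72 h. The other had samples at 24 h and 72 h, with 4 and 4 of rosiglitazone plus trametinib, 6 and 5 of ATRA (all-trans retinoic acid) and 3 and 3 of DMSO. All cell groups rest on this single line, and the labels do not say whether samples came from separate animals or cultures, so every p-value measures only the spread between these samples. Rosiglitazone activates the nuclear receptor PPARG, and trametinib inhibits MEK, the kinase that activates ERK.

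Glycolysis splits glucose into pyruvate in the cytosol, and lactate dehydrogenase turns pyruvate into lactate, which monocarboxylate transporters carry out of the cell. When oxygen is low, prolyl hydroxylases stop marking the factor HIF1A for breakdown, and HIF then switches on many glycolytic enzymes together with genes for blood vessel growth, pH control and collagen modification. Growth factor signalling through ERK and MYC also raises many of the same enzymes, and proliferating tumours are known for high glucose uptake.

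HIF binds DNA at the core letters ACGTG or GCGTG. RefSeq promoters on GRCm38.p6, each from 250 bases before to 50 bases after a start, were available for 34 of the 35 genes, with 52 starts in all. The letters ACGTG stood on either strand in 28 of these 52 promoters (53.8%), against 19.6% of 32851 promoters in the same table. The letters GCGTG stood in 27 of them (51.9%), against 32.4% of all promoters, and at least 1 of the motifs in 40 (76.9%), against 43.8%. The listed promoters were also richer in G and C, with a median of 62.2% against 52.7%, and in CG, with a median of 20 against 7 per promoter; the part of this in the motif shares was not tested. A match in these letters is a description of the sequence and not a binding site. The promoters of the 8 genes called in 7 or more of 12 comparisons are printed below because these genes carry much of what follows; for each the most upstream start was taken, the strand is that of the gene, and capitals mark the motifs, which read CACGT or CACGC where the match is on the other strand. They lie at chr15:98092339-98092638 (+) for Pfkm, chr13:6648722-6649021 (-) for Pfkp, chr2:71872974-71873273 (+) for Pdk1, chr10:62379859-62380158 (-) for Hk1, chr2:11553880-11554179 (-) for Pfkfb3, chr4:150236458-150236757 (+) for Eno1, chr11:120948817-120949116 (+) for Slc16a3 and chr12:54203825-54204124 (-) for Egln3.
Pfkm: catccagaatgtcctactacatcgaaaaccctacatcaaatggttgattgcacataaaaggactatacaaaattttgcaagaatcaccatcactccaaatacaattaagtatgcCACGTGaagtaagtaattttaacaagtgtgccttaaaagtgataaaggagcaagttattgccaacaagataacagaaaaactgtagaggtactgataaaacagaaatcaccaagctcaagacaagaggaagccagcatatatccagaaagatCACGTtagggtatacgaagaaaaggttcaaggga
Pfkp: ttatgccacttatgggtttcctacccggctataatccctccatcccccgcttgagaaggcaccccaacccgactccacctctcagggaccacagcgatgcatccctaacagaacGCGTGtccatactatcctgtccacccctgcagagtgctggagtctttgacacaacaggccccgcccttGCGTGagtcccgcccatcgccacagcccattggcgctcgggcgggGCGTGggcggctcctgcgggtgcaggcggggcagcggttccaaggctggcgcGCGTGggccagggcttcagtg
Pdk1: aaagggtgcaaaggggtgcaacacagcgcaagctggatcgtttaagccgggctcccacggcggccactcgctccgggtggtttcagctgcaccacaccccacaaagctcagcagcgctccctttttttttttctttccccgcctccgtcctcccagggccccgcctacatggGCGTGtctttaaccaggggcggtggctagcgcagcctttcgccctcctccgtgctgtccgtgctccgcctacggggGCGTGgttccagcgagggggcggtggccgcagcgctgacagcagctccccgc
Hk1: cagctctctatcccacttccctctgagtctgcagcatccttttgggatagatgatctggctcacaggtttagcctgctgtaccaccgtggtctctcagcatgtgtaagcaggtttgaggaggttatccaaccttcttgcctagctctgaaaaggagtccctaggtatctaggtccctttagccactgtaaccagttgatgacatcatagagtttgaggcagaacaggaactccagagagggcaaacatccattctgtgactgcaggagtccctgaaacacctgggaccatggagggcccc
Pfkfb3: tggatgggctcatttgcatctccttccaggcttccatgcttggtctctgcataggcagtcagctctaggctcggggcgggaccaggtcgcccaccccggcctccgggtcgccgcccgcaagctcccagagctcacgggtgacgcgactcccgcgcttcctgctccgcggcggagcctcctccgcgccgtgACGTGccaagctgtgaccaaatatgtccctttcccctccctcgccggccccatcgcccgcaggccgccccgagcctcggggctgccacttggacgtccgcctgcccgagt
Eno1: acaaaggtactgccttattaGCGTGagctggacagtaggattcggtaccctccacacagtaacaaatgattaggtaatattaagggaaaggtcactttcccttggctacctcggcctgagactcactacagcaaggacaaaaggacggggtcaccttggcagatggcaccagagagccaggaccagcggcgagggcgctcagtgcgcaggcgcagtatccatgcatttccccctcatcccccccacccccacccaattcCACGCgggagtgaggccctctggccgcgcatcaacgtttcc
Slc16a3: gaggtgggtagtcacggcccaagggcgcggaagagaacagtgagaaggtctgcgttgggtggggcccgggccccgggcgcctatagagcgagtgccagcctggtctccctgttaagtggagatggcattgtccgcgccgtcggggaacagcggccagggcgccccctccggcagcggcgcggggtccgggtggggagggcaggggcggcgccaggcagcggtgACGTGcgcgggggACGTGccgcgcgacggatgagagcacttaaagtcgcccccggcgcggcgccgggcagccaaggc
Egln3: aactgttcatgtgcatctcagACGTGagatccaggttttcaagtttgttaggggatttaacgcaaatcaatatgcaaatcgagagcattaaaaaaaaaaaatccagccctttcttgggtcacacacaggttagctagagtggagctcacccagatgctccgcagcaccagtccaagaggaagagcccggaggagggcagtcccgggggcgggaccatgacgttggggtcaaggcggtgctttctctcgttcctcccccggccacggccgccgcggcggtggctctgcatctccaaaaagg
At the start printed, Pfkm held the palindrome CACGTG, in which matches on both strands overlap, and a further match 16 bases after this start. Of the Pfkm starts downstream, the nearest had 1 match of ACGTG and 1 of GCGTG, the next 1 of GCGTG, and the last none. Pfkp had 4 matches of GCGTG and Hk1 none at the start printed, while a second Hk1 start downstream had 2 of ACGTG and 3 of GCGTG. Among the other genes, the more upstream promoter of Ldha held 5 matches of ACGTG and 2 of GCGTG, and that of Bnip3 held 2 and 3.

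Every value below is a read estimate that the authors divided by normalisation factors. A gene was called when its limma adjusted p, corrected over all genes of the comparison, was under 0.05, and changes are log2 fold changes of value + 1, with the standard error (SE) after the ± sign. Depth was 45.5 to 77.1 M reads (M, 1e6 reads) per sample in the 1-month table (with no BBN) and 29.7 to 48.1 M in the first cell experiment. In the 5-day table it was 17.4 to 22.9 M in treated and 32.7 to 72.5 M in vehicle samples, and in the second cell experiment 4.64 to 29.45 M. Some libraries stood apart on the listed genes. Vehicle replicate 2 of the 1-month tissue had 26974 for Slc2a1 against 7414 and 8572 in its group, 20972 for Slc16a3 against 2359 and 2965, and 4809.7 for Egln3 against 914 and 968. Its neutrophil markers averaged a log2 value of 12.2 against 8.66 and 7.94, and its fibroblast markers 10.8 against 13.9 and 13.8. Vehicle replicate 2 of the 5-day tissue had 7625 for Egln3 against 701 and 1936. The library labelled ATRA 72 h, replicate 1, went against its label. It was set against the means of the other ATRA samples of 24 h, without replicate 6, and of 72 h. Among 787 genes that differed by more than 1 log2 unit between these means, it was nearer to the 24 h mean for 78.8%. ATRA 24 h replicate 6 and the library itself were also left out of the means for the shares that follow. For the other 4 libraries labelled ATRA 72 h that share was 15.2% to 17.4%, and for the 6 labelled ATRA 24 h 76.0% to 82.4%. ATRA 24 h replicate 6 and that library also had the lowest mean of the cell cycle genes, 9.71 and 9.60, while the other ATRA libraries lay between 10.2 and 10.7. Epithelial markers averaged log2 values of 9.16 to 9.89 in the table of the combination in the first cell experiment, and 7.10 to 7.94 in that of the second. Markers of T and NK cells were at 1.92 to 2.33 and at 0.547 to 1.12 in the same tables. The bladder samples, which the labels call basal urothelial cancer cells, also carried fibroblast, endothelial and immune markers and are whole tissue. In such samples fewer cells of a type and less RNA per cell cannot be told apart.

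**Figure D1:**
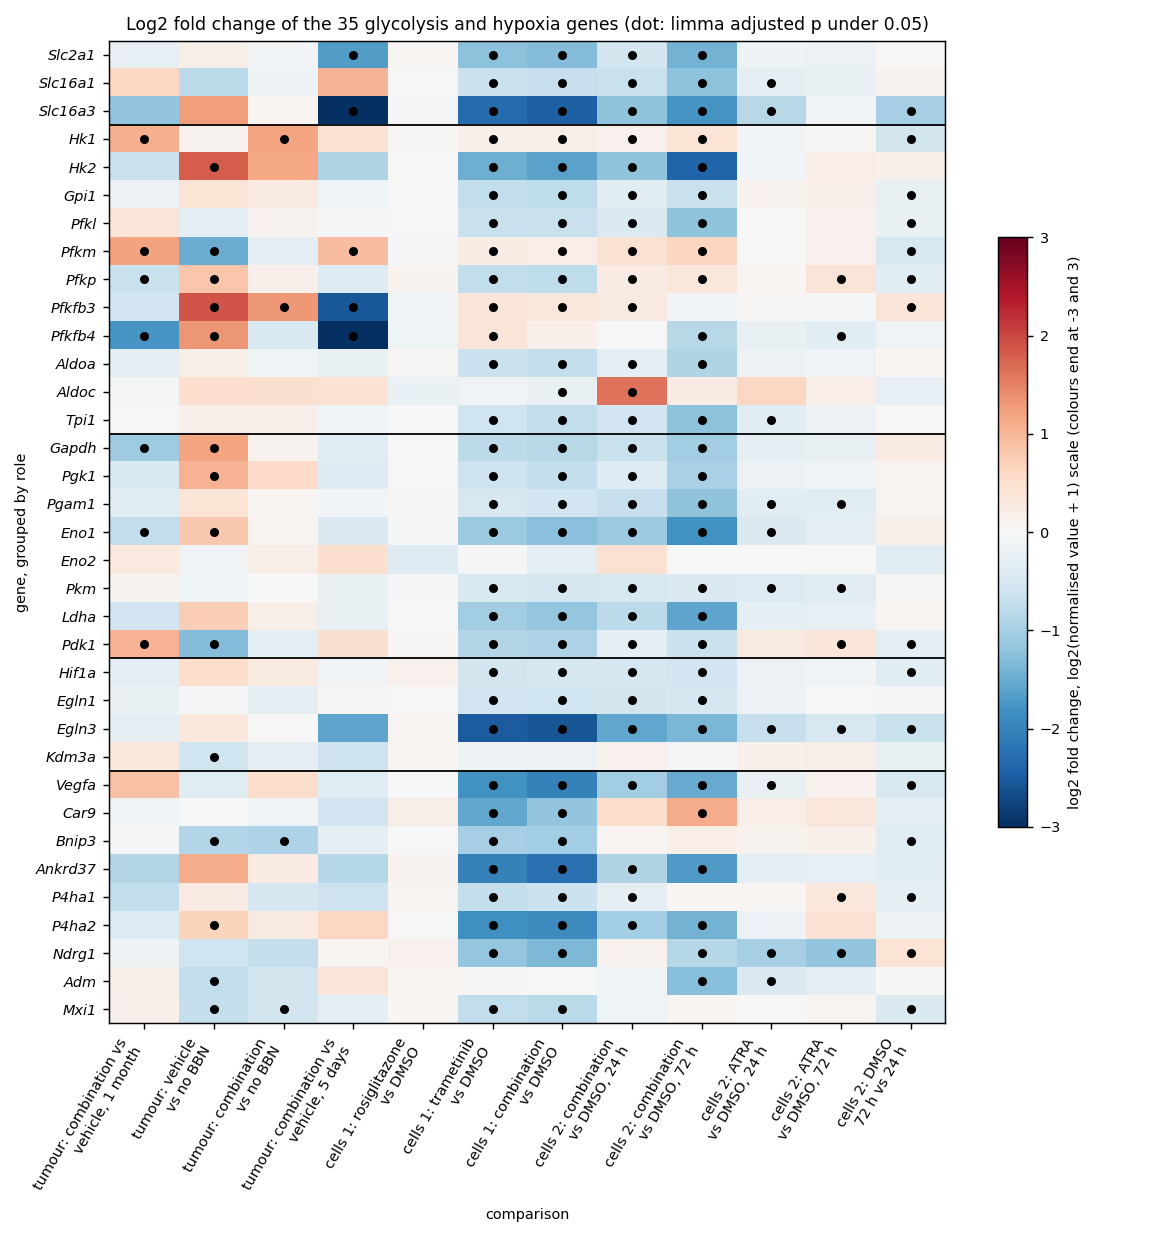
Log2 fold changes of the 35 genes (rows, grouped by role: transport, upper glycolysis, lower glycolysis, oxygen sensing, hypoxia response) in 12 comparisons (columns), with colours that end at -3 and 3 and a dot where limma called the gene. The columns of trametinib and of the combination in cells are mostly blue with dots, rows Hk1 and Pfkm are red there, and the rosiglitazone column holds no dot.

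In the first cell experiment most of the list was lower with trametinib, alone or in the combination. Trametinib alone at 72 h left 27 of the 35 genes lower and 4 higher than DMSO, and the combination 28 lower and 3 higher. Over all tested genes 71.1% were called with trametinib (35.3% lower and 35.8% higher) and 72.5% with the combination (36.2% lower and 36.3% higher). The median change of the list was -0.72 and -0.74, against 0.01 over all genes in both comparisons. These comparisons share the same 5 DMSO libraries, so their values are given side by side and the difference between them was not tested.

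Transcripts of all 3 listed transporters of glucose and lactate fell. Slc2a1, the main glucose transporter of most epithelial cells, had 2394, 2352, 2438, 2273 and 2234 with the combination and 5676, 5942, 6107, 6071 and 5249 with DMSO. Its change was -1.31 ± 0.05 with the combination and -1.22 ± 0.05 with trametinib (limma adjusted p = 1.51e-11 and 6.46e-11). Slc16a3, the lactate exporter of glycolytic cells, had 21.7, 17.6, 51.0, 31.5 and 35.6 with the combination and 150.4, 194, 228, 142 and 134 with DMSO. With trametinib alone it had 46.7, 33.7, 27.1, 25.1 and 51.0, against 162, 209, 246, 152 and 144 in DMSO as scaled in that table. Its groups did not overlap in either table, and its changes were -2.46 ± 0.25 and -2.31 ± 0.21. Slc16a1, the other monocarboxylate transporter, fell by less, with -0.70 ± 0.03 and -0.64 ± 0.03.

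The enzymes fell almost throughout, apart from particular isoforms. Of the 11 genes of upper glycolysis 7 fell and 3 rose with the combination, and of the 8 of lower glycolysis 7 fell and none rose. Hk2, the hexokinase isoform of many tumours, had 1641, 2017, 1694, 1666 and 1709.6 with the combination, below all DMSO values of 5117, 4875, 5078, 6681 and 4756, a change of -1.60 ± 0.09. Hk1, the hexokinase found in most tissues, moved the other way, at 6424, 6664, 6646, 6514 and 6426 against 5628, 5788, 5880.3, 5777 and 5742. This rise of 0.18 ± 0.03 was small but without overlap (adjusted p = 9.26e-05). The phosphofructokinases, which commit sugar to glycolysis, divided in the same way. The liver type Pfkl and the platelet type Pfkp fell by 0.66 ± 0.04 and 0.76 ± 0.04, while the muscle type Pfkm rose by 0.20 ± 0.05. Pfkfb3, a bifunctional enzyme that makes the activator of phosphofructokinase, rose by 0.34 ± 0.07. Its relative Pfkfb4 rose with trametinib (0.40 ± 0.06) and had 0.15 ± 0.09 with the combination (adjusted p = 0.161), or 0.21 and a call without combination replicate 2.

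In lower glycolysis the largest falls were those of Eno1, enolase of most tissues (-1.26 ± 0.04 with the combination and -1.13 ± 0.04 with trametinib), and Ldha, which makes lactate. Ldha had 33126, 33834, 33491, 33861 and 33142 with the combination and 72481, 74793, 75049, 82659 and 70424 with DMSO, a change of -1.16 ± 0.04. All treated values lay below all control values. Gapdh, often used as a reference gene in expression assays, fell by 0.84 ± 0.05 and 0.79 ± 0.05, and Pkm, pyruvate kinase, fell by 0.51 ± 0.03 and 0.45 ± 0.03. Pdk1, a kinase that limits the use of pyruvate in the mitochondria, fell by 0.94 ± 0.10 and 0.89 ± 0.09. Eno2, the neuronal enolase, was not called, with -0.28 ± 0.14 and -0.07 ± 0.25, but was called with the combination without its replicate 4 (-0.38, limma adjusted p = 0.024) or with quantile normalisation (-0.39).

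The steepest changes of the list were among HIF targets. Egln3, a prolyl hydroxylase that HIF itself induces, had 416, 352, 386, 330.2 and 375 with the combination and 2223, 2457, 2453, 2085 and 1888 with DMSO. With trametinib it had 393, 414, 431, 428 and 442, against 2409, 2664, 2659, 2256 and 2042 with DMSO. The groups lay far apart in both tables, and the changes were -2.57 ± 0.08 and -2.50 ± 0.07 (limma adjusted p = 4.97e-12 and 1.17e-12). Ankrd37, an ankyrin repeat gene and HIF target, had 176, 158, 165, 139 and 148 with the combination and 774, 771, 777, 767 and 647 with DMSO (-2.24 ± 0.08). Vegfa, the vessel growth factor, had 1479, 1586, 1695, 1399.6 and 1505, against 6903, 6579, 6699, 5039 and 5934 (-2.02 ± 0.08). P4ha2, a collagen prolyl hydroxylase, had 238, 294, 253, 225 and 242, against 917, 1103, 1069.8, 819 and 806 (-1.90 ± 0.10). With trametinib alone Ankrd37, Vegfa and P4ha2 changed by -2.03 ± 0.10, -1.81 ± 0.08 and -1.85 ± 0.11. No value of these 3 genes overlapped between treatment and DMSO in either table.

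Of the 9 hypoxia response genes 8 fell in both comparisons. The exception was Adm, the vasodilator peptide adrenomedullin, at -0.02 ± 0.05 and 0.04 ± 0.06. Car9, the carbonic anhydrase that acidifies the surroundings of hypoxic cells, fell by 1.18 ± 0.19 with the combination and 1.56 ± 0.18 with trametinib. Bnip3, a mitophagy receptor, fell by 1.04 ± 0.08 and 1.00 ± 0.09, and Mxi1, an antagonist of MYC, by 0.82 ± 0.04 and 0.74 ± 0.04. Among the oxygen sensing genes Hif1a itself fell by 0.50 ± 0.06 and 0.55 ± 0.06 and Egln1, the main prolyl hydroxylase acting on it, by 0.59 ± 0.05 and 0.58 ± 0.05. The histone demethylase Kdm3a was not called, at -0.17 ± 0.07 and -0.15 ± 0.08, but was called lower in both without DMSO replicate 4 (-0.24 and -0.23).

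**Figure D2:**
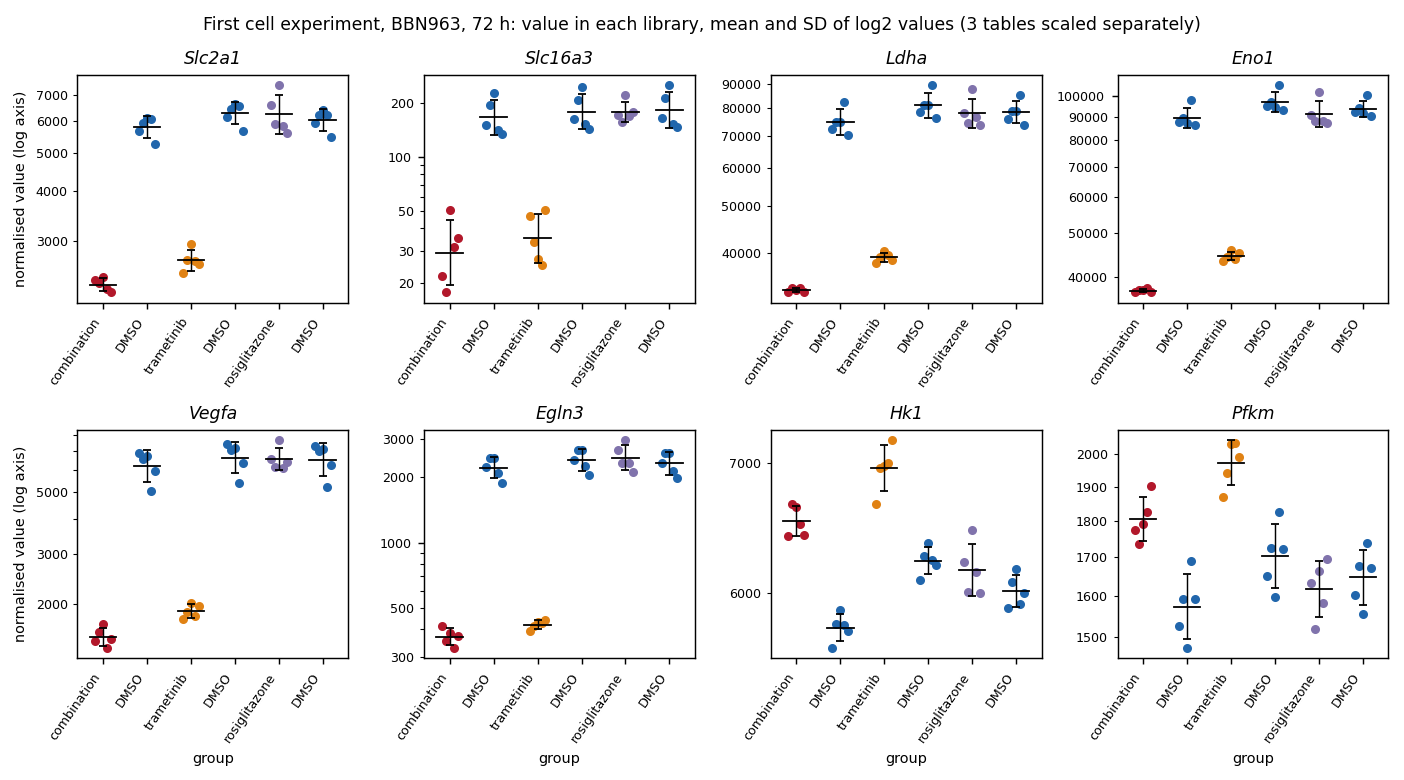
Normalised values (log axis) of 8 genes in each library of the first cell experiment at 72 h, with horizontal bars for the mean and whiskers for the SD of the log2 values (n = 5 each); the 3 tables were scaled separately, so each treatment stands left of DMSO as scaled in its own table. Points of the combination and of trametinib lie below DMSO for Slc2a1, Slc16a3, Ldha, Eno1, Vegfa and Egln3 and above it for Hk1 and Pfkm, and rosiglitazone overlaps DMSO in all 8.

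Rosiglitazone alone left the list without a call. By limma 0 of 14218 genes passed the threshold (0%), 940 genes had an unadjusted p under 0.05, and none of the 35 were among these. The counts of calls stayed at 0 with quantile normalisation and with each library left out. Ldha had 78291, 74495, 87899, 76777 and 73967 with rosiglitazone and 76197, 78849.8, 79133, 85089.9 and 73912 with DMSO. These values overlapped. Egln3 had 2667, 2321, 2962, 2325 and 2119 with rosiglitazone and 2335, 2589, 2585, 2145 and 1979 with DMSO, which also overlapped.

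Other genes moved in the same cells. All 15 ERK-driven genes tested fell with trametinib and with the combination, with medians of -3.50 and -3.41, and all 18 cell cycle genes fell, with medians of -1.26 and -1.50. Myc fell by 1.40 ± 0.06 with trametinib and 1.46 ± 0.05 with the combination, and Mxd4, a MYC antagonist, rose by 2.50 ± 0.06 and 2.59 ± 0.06. Their part in the glycolytic changes was not tested. The remaining genes of the pathway did not share the one-sided pattern. Of 22 other glycolysis genes tested with the combination 7 rose and 10 fell (median -0.22), and of 44 other hypoxia genes 15 rose and 22 fell (median -0.35). The fallers included Txnip, which limits glucose uptake (-2.49 ± 0.06), galactokinase Galk1 (-1.96 ± 0.06) and the carbonic anhydrase Car12 (-2.57 ± 0.08). The risers included the glucose transporter Slc2a6 (3.21 ± 0.12) and Angptl4, a target of both HIF and PPARG (2.86 ± 0.07). In the pentose phosphate pathway, a branch of glucose use that makes NADPH and ribose, 1 gene rose and 4 fell of 9. The riser was G6pdx, its entry enzyme (0.60 ± 0.04).

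The second cell experiment followed the combination at 24 h and 72 h. At 24 h 22 of the 35 genes were lower and 5 higher than DMSO, where 59.1% of all genes were called (28.9% lower and 30.2% higher), and the median of the list was -0.39 against 0.00. At 72 h 24 were lower and 4 higher, where 72.4% of all genes were called (36.1% lower and 36.3% higher), and the median was -0.86 against -0.01. The transporters, upper enzymes and lower enzymes that fell in the first experiment mostly fell here too. Hk2 had 281, 319, 288 and 306 with the combination and 655, 664 and 752 with DMSO at 24 h, and 130.3, 135, 154 and 159 against 736, 734 and 851 at 72 h. The groups were apart at both times, with changes of -1.21 ± 0.09 and -2.41 ± 0.09 (limma adjusted p = 1.8e-09 and 3.42e-14). Eno1 had 7394, 6130.0, 6235 and 6309 against 14324, 13960.5 and 13557 at 24 h, and 4700.1, 4433, 4081 and 4323 against 16432, 16485 and 13881 at 72 h. Its changes were -1.10 ± 0.08 and -1.83 ± 0.08. Ldha had 7883, 6433, 6344 and 6514 against 11932, 11401 and 11819 at 24 h, and 4476, 4049, 3859 and 4319.9 against 12908, 13376 and 11146 at 72 h. Its changes were -0.79 ± 0.08 and -1.58 ± 0.08, again without overlap at either time.

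Slc16a3 was low throughout this experiment. It had 27.8, 25.3, 24.0 and 24.6 with the combination and 55.3, 71.3 and 54.0 with DMSO at 24 h, and 7.24, 15.4, 7.20 and 4.73 against 33.7, 22.7 and 33.8 at 72 h (-1.20 ± 0.29 and -1.78 ± 0.29). Egln3 had 218, 200.2, 182 and 190.1 against 581, 611 and 554 at 24 h, and 147, 144, 145 and 128 against 407, 346 and 343 at 72 h. It fell by 1.56 ± 0.09 and 1.37 ± 0.09, with no overlap. Ankrd37 had 21.2, 26.4, 24.5 and 18.9 with the combination at 72 h and 80.7, 75.8 and 70.6 with DMSO (-1.70 ± 0.19). Vegfa fell by 1.05 ± 0.08 at 24 h and fell by 1.52 ± 0.08 at 72 h.

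Hk1 and Pfkm rose again. Hk1 rose by 0.14 ± 0.06 at 24 h (limma adjusted p = 0.0412) and 0.42 ± 0.06 at 72 h, and Pfkm by 0.45 ± 0.08 and 0.64 ± 0.08. These are changes against DMSO of the same time. With the combination Hk1 had 1718, 1684, 1654 and 1660 at 24 h and 1417, 1386, 1326 and 1425 at 72 h. In DMSO it had 1505, 1467 and 1609.6 at 24 h and 1059, 979.6 and 1072 at 72 h. Pfkm was also lower at 72 h than at 24 h in both groups. Aldoc, the aldolase isoform of brain, had 104, 77.1, 70.9 and 88.5 with the combination at 24 h and 10.8, 46.2 and 37.2 with DMSO. All treated values were higher, and the change was 1.62 ± 0.36 (adjusted p = 0.00109), from low values and with 1 DMSO library at 10.8. At 72 h its change was 0.22 ± 0.36. As in the first experiment, all 14 tested ERK-driven genes and all 18 cell cycle genes fell at both times, and Myc fell by 2.20 ± 0.12 and 3.43 ± 0.12; their part was not tested.

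The change with the combination was larger at 72 h than at 24 h for most of the enzymes. The test of the difference, 72 h minus 24 h, called 20 genes lower and 2 higher among the 35, where 34.1% of all genes were called (17.1% lower and 17% higher). Hk2 differed by -1.21 ± 0.12, Slc2a1 by -0.86 ± 0.11 and Ldha by -0.79 ± 0.12. The higher differences were those of Hk1, 0.28 ± 0.08, and P4ha1, a collagen prolyl hydroxylase, 0.31 ± 0.11. Adm, whose values at 24 h overlapped between the groups, had 42.9, 39.6, 31.7 and 33.1 with the combination at 72 h and 80.7, 108 and 82.2 with DMSO. It changed by -1.27 ± 0.17 at 72 h and -0.13 ± 0.17 at 24 h, and the difference of -1.14 ± 0.24 was called (adjusted p = 0.00127). Ndrg1, a stress gene induced by hypoxia, had 277, 329.8, 325 and 407 with the combination at 72 h and 672, 570.0 and 577 with DMSO. At 24 h it had 543, 460.2, 460.4 and 518 against 412, 513 and 448. Its difference between the times was -0.98 ± 0.16. None of the 4 oxygen sensing genes had a called difference.

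**Figure D3:**
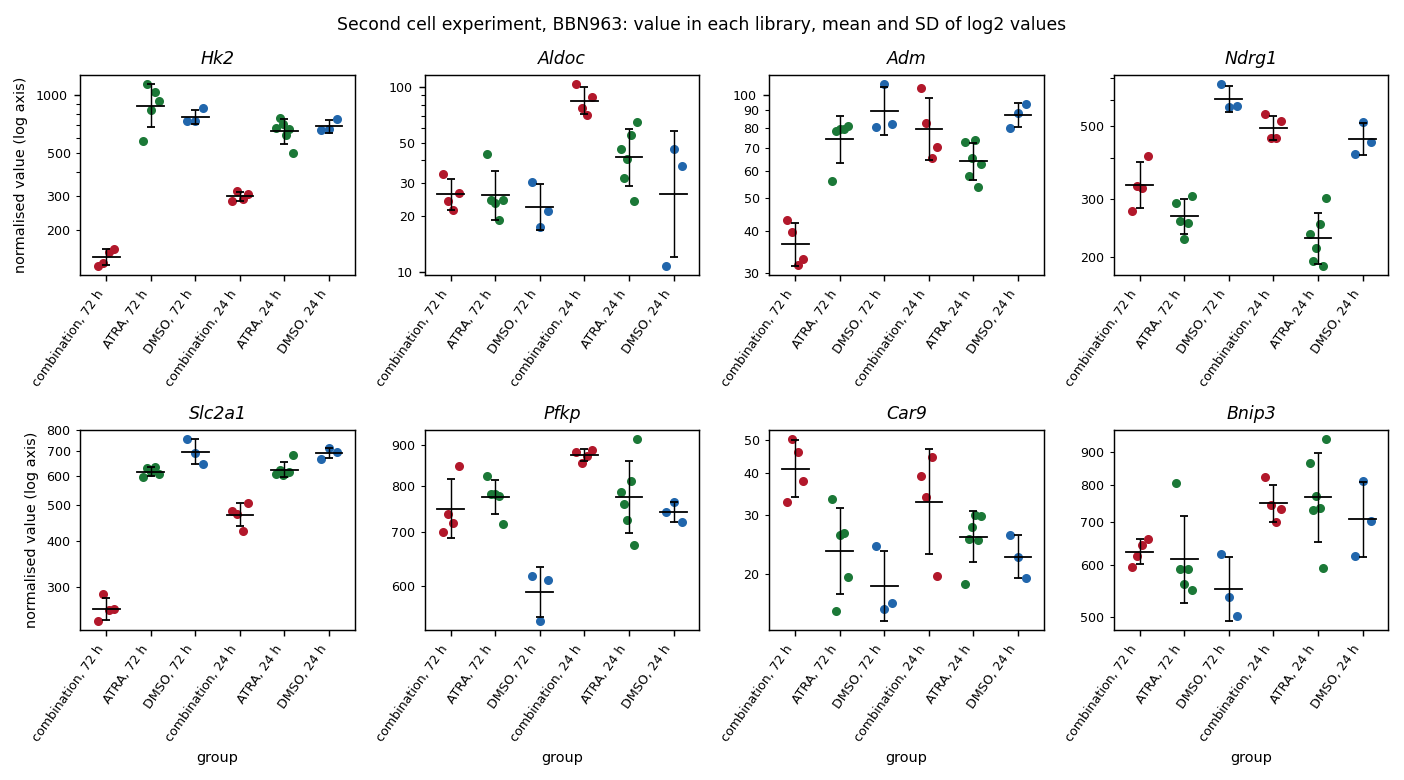
Normalised values (log axis) of 8 genes in each library of the second cell experiment, with horizontal bars for the mean and whiskers for the SD of the log2 values (combination n = 4, ATRA n = 5 at 72 h and 6 at 24 h, DMSO n = 3). Hk2, Adm and Slc2a1 are lowest with the combination at 72 h, Ndrg1 is low with ATRA at both times, and Pfkp and Car9 are higher with the combination than with DMSO at 72 h.

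The combination at 72 h could be compared between the experiments, which share no library. Of the 35 genes 24 were called in the same direction in both, 22 lower and 2 higher (Hk1 and Pfkm), and 2 in opposite directions. The 2 were Pfkp and Car9. Pfkp fell by 0.76 ± 0.04 in the first experiment and rose by 0.35 ± 0.07 in the second, where it had 701, 738, 718 and 848 with the combination and 617, 542 and 610.0 with DMSO. Car9 fell by 1.18 ± 0.19 in the first and rose by 1.12 ± 0.26 in the second, with 32.9, 50.6, 46.1 and 37.8 against 24.3, 15.7 and 16.4. Neither gene's groups overlapped in either experiment. The test of first minus second called 10 of the 35 genes higher and 11 lower, where 45.4% of all genes were called (23.5% higher and 21.8% lower). The differences were -1.11 ± 0.08 for Pfkp and -2.30 ± 0.33 for Car9 (limma adjusted p = 1.23e-11 and 2.13e-06).

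The hypoxia response genes were those that parted most between the experiments. Of these 9 genes 8 had a called difference, 7 of them lower in the first experiment. Bnip3, with 596, 621, 646 and 659 in the second experiment against 624.5, 536 and 501 with DMSO, changed by 0.19 ± 0.09 there (uncalled, but 0.28 and called without DMSO 72 h replicate 1) and by -1.04 ± 0.08 in the first, a difference of -1.23 ± 0.13. Mxi1 and P4ha1 had 0.06 ± 0.07 and 0.05 ± 0.08 in the second experiment with differences of -0.88 ± 0.07 and -0.71 ± 0.10. Egln3 fell in both, by 1.21 ± 0.12 more in the first. Adm was the reverse, with a difference of 1.25 ± 0.17. Among the enzymes the falls were larger in the second experiment for Hk2 (difference 0.82 ± 0.13), Pgam1, phosphoglycerate mutase (0.65 ± 0.08), Eno1 (0.57 ± 0.09) and Pfkl (0.54 ± 0.07). Pfkfb4 changed by 0.151 in the first experiment and by -0.823 in the second, a called difference of 0.975 ± 0.137. Pfkfb3 changed by 0.338 and -0.078, a called difference of 0.416 ± 0.108. The experiments differed in depth, in scaling and in whatever else separated them, and these cannot be told apart.

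**Figure D4:**
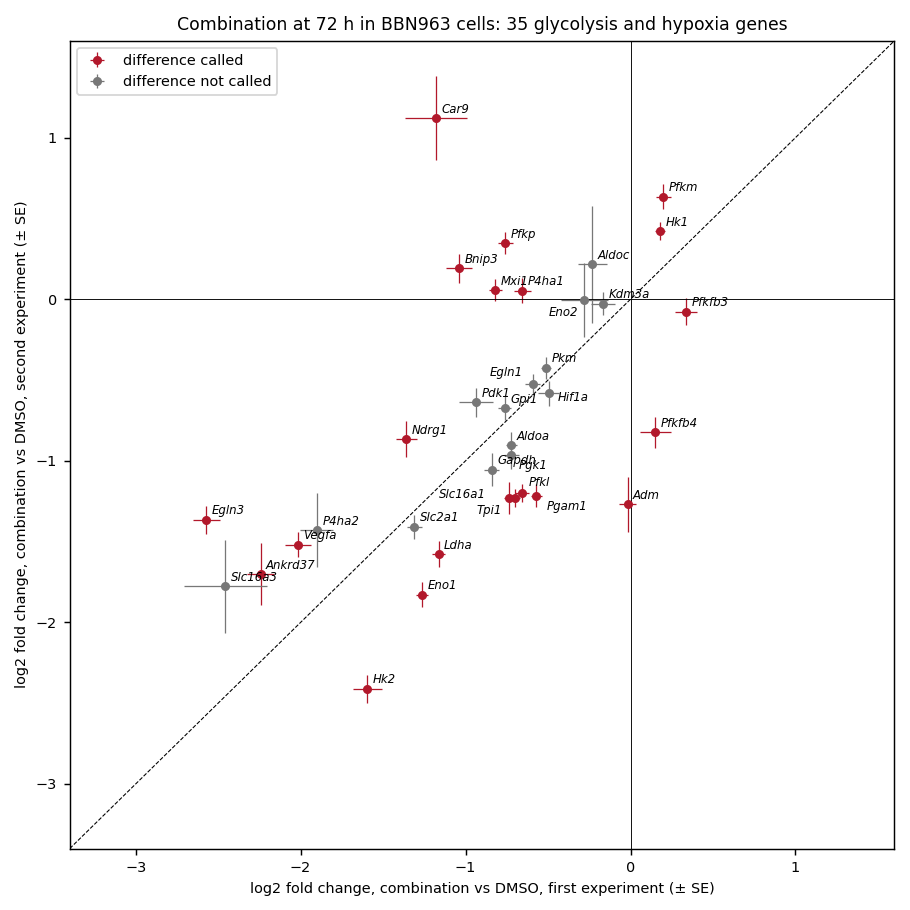
Log2 fold change with its SE for each of the 35 genes, combination against DMSO at 72 h, in the first (horizontal axis) and the second cell experiment (vertical axis), with a dashed line of equal change and red points where the test of the difference was called. Most points lie in the lower left, Hk1 and Pfkm in the upper right, and Pfkp, Car9, Bnip3, Aldoc, Mxi1 and P4ha1 lie left of zero and above it, Mxi1 and P4ha1 only just above.

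ATRA, which activates retinoic acid receptors, changed fewer of the genes. At 24 h 10 of the 35 fell and none rose, where 19.4% of all genes were called (9.93% lower and 9.44% higher), and the list median was -0.17 against -0.02. Without the 2 libraries that stand apart 15 fell and 1 rose, and without DMSO 24 h replicate 1, 2 or 3 there were 4, 3 and 5 calls. At 72 h 5 fell and 3 rose, where 12.2% of all genes were called (5.08% lower and 7.08% higher), and the list median was -0.06 against -0.01, or 0.05 with quantile normalisation. Without those libraries 6 fell and 5 rose, and without DMSO 72 h replicate 1 or 2 there were 5 calls. For both times, the shares of all genes called in the fits without libraries are not given here. Whether the counts on the list followed those shares was not tested. Ndrg1 was the most changed at both times, with 189 to 303 and a median of 225 in the 6 ATRA samples at 24 h and 412, 513 and 448 with DMSO. At 72 h it had 293, 257, 227, 253 and 308 against 672, 570.0 and 577. No values overlapped, and it fell by 1.00 ± 0.13 and 1.18 ± 0.14 (limma adjusted p = 6.54e-05 and 1.29e-05). Egln3 had 328 to 393 with a median of 359.7 against 581, 611 and 554 at 24 h, and 319, 258, 231, 274 and 239.5 against 407, 346 and 343 at 72 h. It fell by 0.70 ± 0.10 and 0.47 ± 0.10, again without overlap.

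Other falls were smaller. Slc16a3 at 24 h ranged from 23.0 to 41.8 with a median of 34.4, below 55.3, 71.3 and 54.0 with DMSO (-0.83 ± 0.22), and at 72 h its change of -0.11 ± 0.23 was not called. Eno1 at 24 h ranged from 9953 to 10524 with a median of 10386, below 14324, 13960.5 and 13557 (-0.43 ± 0.12). At 72 h Eno1 had 9027 in the library labelled ATRA 72 h, replicate 1, and 13668, 14274, 14022 and 14234 in the others, against 16432, 16485 and 13881 with DMSO. Adm at 24 h ranged from 53.7 to 73.8 with a median of 64.0, below 79.9, 88.4 and 93.8 (-0.44 ± 0.15, adjusted p = 0.0413). Pkm and Pgam1 fell at both times, Pkm by 0.40 ± 0.08 and 0.34 ± 0.08 and Pgam1 by 0.34 ± 0.10 and 0.31 ± 0.10.

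The 3 risers at 72 h were Pfkp, Pdk1 and P4ha1. Pfkp had 823, 781, 781, 777 and 717 with ATRA and 617, 542 and 610.0 with DMSO (0.40 ± 0.08). Pdk1 had 772, 646, 603, 668 and 574 against 545, 459 and 521 (0.36 ± 0.10), and P4ha1 rose by 0.34 ± 0.08. Pfkfb4, a relative of Pfkfb3, fell at 72 h, with 192, 173, 148, 171 and 179.8 against 231, 205 and 221 (-0.35 ± 0.09). The groups of these genes did not overlap. Hk2, Hk1 and Pfkm, which changed with the combination, were not called with ATRA, with 0.19 ± 0.17, 0.04 ± 0.11 and 0.14 ± 0.10 at 72 h. Hk2 was at 0.34 without the library labelled ATRA 72 h, replicate 1 (limma adjusted p = 0.0686), and was called higher, also by 0.34, without both libraries that stand apart (adjusted p = 0.0113). ATRA and the combination share their DMSO libraries.

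The test of the ATRA change at 72 h minus that at 24 h called none of the 35 genes by limma, where 0% of all genes were called. Of the 35, 5 had an unadjusted p under 0.05, and of all genes 581. Over all genes edgeR on the recovered reads called 0 and DESeq2 28. Without the library labelled ATRA 72 h, replicate 1, limma called P4ha2 alone of the list (0.81, adjusted p = 0.0341). Without both libraries that stand apart it called P4ha2 (0.82), Pfkp (0.36) and Eno1 (0.28), and edgeR called 254 genes higher and 149 lower, 2 of the list among the higher. Other lists moved with ATRA at 24 h: 7 of 14 ERK-driven genes and 5 of 18 cell cycle genes fell. At 72 h none of either list fell, and the part of these genes was not tested.

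Some of the genes also differed between the times in DMSO alone. In DMSO at 72 h against DMSO at 24 h 13 of the 35 were lower and 2 higher, where 24.9% of all genes were called (13.8% lower and 11.1% higher), and the list median was -0.19 against 0.02. Slc16a3 had 33.7, 22.7 and 33.8 at 72 h and 55.3, 71.3 and 54.0 at 24 h (-0.99 ± 0.31, limma adjusted p = 0.0253). Egln3 had 407, 346 and 343 at 72 h and 581, 611 and 554 at 24 h (-0.67 ± 0.09). Hk1 had 1059, 979.6 and 1072 at 72 h and 1505, 1467 and 1609.6 at 24 h (-0.56 ± 0.06). In all 3 genes the later values were below the earlier ones. Pfkm fell by 0.48 ± 0.08 and Vegfa by 0.47 ± 0.08, and the groups of both were apart. Without DMSO 72 h replicate 2 there were 9 calls on the list. The risers were Pfkfb3, 0.36 ± 0.09, and Ndrg1, 0.41 ± 0.12. Of the 8 genes of lower glycolysis 1 fell, Pdk1 (-0.29 ± 0.10), and the other 7 were not called. These DMSO libraries are also the controls of the combination and of ATRA at each time.

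In tumour tissue after 1 month of rosiglitazone plus trametinib 3 genes of the list were higher and 4 lower than in vehicle tumours, 20% of the 35, close to the 23.8% called over all genes (10.1% higher and 13.7% lower). The list median was -0.22 against 0.04. Quantile normalisation moved the median of all genes to 0.13 and that of the list to 0.00, and the split of all calls to 2695 higher and 2102 lower, where the main scaling gave 1889 and 2575. Without treated replicate 4, 11 of the list were called, 8 of them lower. The calls gained were Pgk1 (-0.63), Ldha (-0.76), Ankrd37 (-1.16) and P4ha1 (-0.94), all lower. Ldha had 86678 in that library and 47987, 54104 and 50684 in the other treated tumours, against 73403, 114942 and 75373 in vehicle tumours. The share of all genes called without that library is not given here. Immune markers moved with the treatment. All 10 T and NK cell markers, 9 of 10 macrophage and dendritic cell markers, all 9 mast cell markers and 2 of 10 neutrophil markers fell. All 6 erythroid markers fell too, with a summed level of 37097 to 110458 in treated and 368227 to 729842 in vehicle tumours. Of 12 epithelial markers 3 rose, with a summed level of 896130.2 to 1054941 against 554645 to 766251. The summed level of the neutrophil markers was 912 to 12104 in treated and 11877 to 412922 in vehicle tumours, and that of the T and NK cell markers 2967 to 17982 against 56077 to 98580.0. Up to 3 of the 10 neutrophil markers were at 0 in a library, and none of the T and NK cell markers. The part of these cells in the changes was not tested.

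Hk1 and Pfkm were higher with the treatment at 1 month as well. Hk1 had 15822, 18165, 14760.0 and 19956 in treated tumours and 8398, 7289.5 and 8617 in vehicle tumours. Every treated value was higher, a rise of 1.08 ± 0.17 (limma adjusted p = 0.0016). Pfkm had 2092, 2489, 2020.3 and 1630.1 in treated and 824, 920.0 and 919 in vehicle tumours, a rise of 1.20 ± 0.16 (adjusted p = 0.000741), again without overlap. Pfkp had 7740.3, 6423, 5599.5 and 7216 in treated and 10935, 9254 and 12091 in vehicle tumours and fell by 0.68 ± 0.13. Pfkfb4 had 646, 604, 512 and 866 in treated and 1577, 4078 and 1695 in vehicle tumours and fell by 1.78 ± 0.33, or by 1.34 without vehicle replicate 2. Gapdh had 32939, 40689, 24792 and 27448 against 72277, 56143 and 67289 and fell by 1.07 ± 0.17. Pdk1, which fell in treated cells, had 4034, 4042, 3979 and 4894 in treated and 1529.8, 2623 and 2148 in vehicle tumours and rose by 1.04 ± 0.20. The groups of Pfkp, Pfkfb4, Gapdh and Pdk1 did not overlap.

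Eno1 fell by 0.73 ± 0.20 (limma adjusted p = 0.0258), with overlapping groups, and lost the call without vehicle replicate 2 (-0.52, adjusted p = 0.0598) or without treated replicate 1, 2 or 3. In tissue its near-identical copy Eno1b carried 64.7% to 72.9% of the Eno1 value in the 1-month table and 65.6% to 82.9% in the 5-day table, against at most 0.255% in cells, so the split of reads between them is uncertain. Eno1b changed by -0.71 ± 0.21. Slc2a1 had 10122, 8752, 8678 and 13339 in treated tumours and 7414, 26974 and 8572 in vehicle tumours, and Slc16a3 had 2453, 2102, 2216 and 2571 against 2359, 20972 and 2965. The treated values of Slc2a1 all lay above the vehicle values 7414 and 8572 and below 26974, that of vehicle replicate 2. Those of Slc16a3 lay near 2359 and 2965. The changes of -0.25 ± 0.41 for Slc2a1 and -1.18 ± 0.61 for Slc16a3 were not called. Vegfa had 4360.1, 4370.3, 4318 and 6329 in treated and 1652, 4668 and 2301 in vehicle tumours. With 0.87 ± 0.31 it was not called (adjusted p = 0.0685), and without vehicle replicate 2 it was called higher, by 1.29 (adjusted p = 0.00239). Pfkl (0.46), Kdm3a (0.47) and P4ha1 (-1.06) were also called without that library.

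Vehicle tumours differed from bladder without BBN in 14 of the 35 genes, 8 higher and 6 lower (40% of the list, against 26.4% of all genes, 15% higher and 11.4% lower). The list median was 0.17 against -0.02, and with quantile normalisation 0.06 against -0.15, with 2386 genes higher and 2881 lower in place of 2816 and 2130. Without no-BBN replicate 2 there were 9 calls on the list. Among the enzymes, Hk2 had 1514, 3503 and 1398 in tumours and 432, 677 and 569 in bladders without BBN (1.82 ± 0.38, limma adjusted p = 0.00588). Pfkfb3 had 1551, 1686 and 1886 against 739, 472 and 282 (1.88 ± 0.31). Pfkfb4 had 1577, 4078 and 1695 against 1003, 747 and 941 (1.32 ± 0.35). All tumour values of these genes were higher. Gapdh rose by 1.19 ± 0.18, Pgk1, phosphoglycerate kinase, by 1.03 ± 0.19, Pfkp by 0.84 ± 0.14 and Eno1 by 0.81 ± 0.22, with Eno1b at 0.86 ± 0.23.

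Pfkm and Pdk1 went the other way. Pfkm had 824, 920.0 and 919 in vehicle tumours and 2664, 2321 and 2448 without BBN (-1.48 ± 0.17, limma adjusted p = 0.00023). Pdk1 had 1529.8, 2623 and 2148 against 6482, 4842 and 4167 (-1.31 ± 0.21). All tumour values of both were lower. The hypoxia response genes did not move one way: P4ha2 rose by 0.66 ± 0.19, while Bnip3 fell by 0.88 ± 0.15, Adm by 0.73 ± 0.18 and Mxi1 by 0.71 ± 0.13, and Vegfa and Car9 were not called, at -0.36 ± 0.33 and 0.01 ± 0.26. Without vehicle replicate 2 Vegfa was called lower, at -0.78 (limma adjusted p = 0.0325). In oxygen sensing Kdm3a fell by 0.60 ± 0.16. The calls of P4ha2, Eno1, Adm and Kdm3a were each lost without at least 2 single libraries. Cell cycle genes (17 of 18 higher) and markers of T and NK cells (10 of 10 higher) and neutrophils (9 of 10 higher) moved with the tumours, and their part was not tested. The summed level of the neutrophil markers was 11877 to 412922 in vehicle tumours and 755 to 1484 without BBN.

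After 1 month of the combination, 4 genes of the list were called, 2 higher and 2 lower, against bladder without BBN, where 4.01% of all genes were called (2.57% higher and 1.44% lower). Hk1 rose by 1.18 ± 0.17 (limma adjusted p = 0.00689), its treated values lying above 8483, 8781 and 5782 without BBN. Pfkfb3 had 1419, 962, 1135 and 1111 in treated tumours and 739, 472 and 282 without BBN (1.31 ± 0.29). Bnip3 had 3597, 2844, 2877 and 3448 against 6209, 5759 and 6172 and fell by 0.93 ± 0.14. Mxi1 had 4679, 5133, 4465 and 5186 against 6782, 7271 and 7187 and fell by 0.54 ± 0.12. None of the 4 genes overlapped between the groups, but neither did some uncalled genes of the list. A lack of overlap therefore does not set these 4 apart. Leaving out any 1 of 6 of the 7 libraries left 1 or 2 calls, and only without no-BBN replicate 1 were there 4. Those 4 included Adm (-0.79, limma adjusted p = 0.0138), so no such fit kept all 4 calls named above. Pfkm and Gapdh were not called, at -0.28 ± 0.16 and 0.12 ± 0.17. The comparisons of the 1-month table share the vehicle, treated and no-BBN samples in pairs.

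At 5 days the transporters Slc2a1 and Slc16a3 and the regulators Pfkfb3 and Pfkfb4 were lower with the combination, and Pfkm was higher. Of the 35 genes 4 fell and 1 rose (14.3%, against 6.17% of all genes, 5.48% lower and 0.699% higher), and the list median was -0.23 against 0.04, or 0.12 against 0.15 with quantile normalisation, which called 249 genes higher and 785 lower in place of 118 and 925. Slc16a3 had 804, 583, 1069 and 751 in treated tumours and 8170.3, 10546 and 3423 in vehicle tumours, a change of -3.09 ± 0.39 (limma adjusted p = 0.0057). Pfkfb4 had 213, 211, 245 and 341 against 2092, 1954 and 2111 (-3.05 ± 0.21, adjusted p = 0.000782). Pfkfb3 had 316, 316, 378 and 406 against 1678, 1406 and 3651 (-2.54 ± 0.33). In these 3 genes the highest treated value stayed far below the lowest vehicle value.

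Slc2a1 had 3967, 3019, 2888 and 2044 in treated and 6999, 11885 and 9729 in vehicle tumours at 5 days (-1.68 ± 0.26, limma adjusted p = 0.0114), also without overlap. Pfkm had 731, 1039, 905 and 885 in treated and 469, 503 and 415 in vehicle tumours, a rise of 0.94 ± 0.18 (adjusted p = 0.0216) that lost its call without any of 4 single libraries, vehicle replicates 1 and 3 and treated replicates 2 and 3. Hk1 had 5534, 5124, 5381 and 4055 in treated and 3192, 4517 and 3480.4 in vehicle tumours, and Slc16a1 had 1833, 4419.7, 4059 and 10577 against 2002, 1140.0 and 4271. Both overlapped and were not called, at 0.43 ± 0.17 and 1.02 ± 0.63. The enzymes of lower glycolysis were not called, with Ldha at -0.23 ± 0.26 and Gapdh at -0.37 ± 0.30. Egln3 had 690.2, 1003, 647 and 622 against 701, 7625 and 1936, and its change of -1.58 ± 0.71 was not called. Neutrophil markers were lower in treated tumours (8 of 9 called), with a summed level of 1130.0 to 7497 against 85852 to 207843 in vehicle tumours, and up to 3 of 10 at 0 in a library. Macrophage and dendritic cell markers summed to 7180.2 to 28068 against 43443 to 120209.5 (7 of 10 called lower), with none at 0. Mast cell markers summed to 847 to 8972 against 18970.1 to 412993 (2 of 9 called lower), and epithelial markers to 185014 to 251683 against 77846 to 157797 (2 of 12 called higher). The part of these cells and of the lower depth of the treated samples was not tested. In the same tumours 4 of 29 other glycolysis genes fell and none rose, among them the glucose transporter Slc2a3 (-2.16 ± 0.30), and 7 of 45 other hypoxia genes fell, among them Nfil3 (-3.28 ± 0.37).

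**Figure D5:**
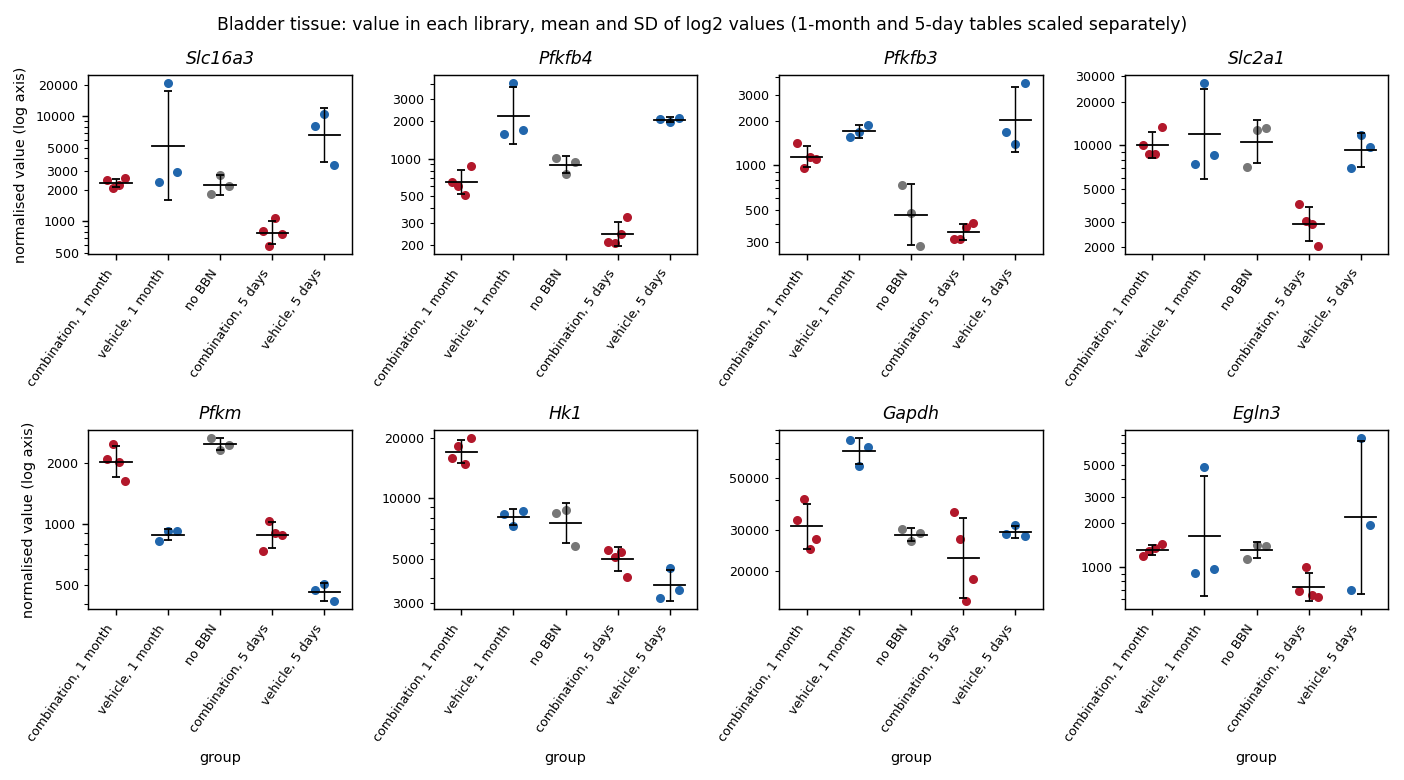
Normalised values (log axis) of 8 genes in each tissue library, with horizontal bars for the mean and whiskers for the SD of the log2 values (combination n = 4, vehicle n = 3, no BBN n = 3); the 1-month and 5-day tables were scaled separately. Hk1 and Pfkm are higher with the combination than with vehicle at 1 month, Slc16a3, Pfkfb4, Pfkfb3 and Slc2a1 are lower with it at 5 days, and vehicle replicate 2 is the single high point for Slc2a1, Slc16a3 and Egln3 at 1 month.

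The treatment change at 1 month minus that at 5 days was called for none of the 35 genes by limma, where 0.405% of all genes were called (0.137% higher and 0.268% lower), and 8 of the 35 had an unadjusted p under 0.05. The values were 1.97 ± 0.45 for Pfkfb3 (adjusted p = 0.0587), 1.43 ± 0.54 for Slc2a1, 1.27 ± 0.41 for Pfkfb4 and 1.91 ± 0.80 for Slc16a3. Without vehicle replicate 2 of the 1-month table the test called Slc16a3 (2.90), Slc2a1 (2.02), Pfkfb4 (1.71) and Kdm3a (1.09). The shares of all genes with an unadjusted p under 0.05, and of those called in this fit, are not given here. Neither count is therefore read as particular to the list. A positive value is a change that is higher at 1 month than at 5 days. For Kdm3a the change was 0.33 ± 0.15 at 1 month and -0.62 ± 0.17 at 5 days, neither called.

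Across the 12 comparisons, the genes called most often were Pfkm, Pfkp and Pdk1, each in 8. Pfkm was higher in 6 and lower in 2, namely vehicle tumours against bladder without BBN and DMSO at 72 h against 24 h. Hk1 was higher in 6 of its 7, Egln3 and Slc16a3 were lower in all 7 of theirs, and Eno2 was not called in any. Many of these comparisons share control or treated libraries, so the tallies do not count independent repeats. The share of all genes called as often is not given here.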

How the data were processed

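Poly-A RNA libraries were sequenced, and kallisto 0.44.0, DESeq2, bcl2fastq 2.19 and GRCm38.p6 are named in the submitters' processing notes. The deposited tables hold a signal, estimated read counts that the authors divided by size factors, per the file headers and values. In the second cell experiment whole reads could be recovered (100.0% of values within 0.1 of a whole number), and elsewhere depth was estimated from the most common low value, which is about what 1 read is worth. Log2(value + 1) was tested with limma 3.58.1 in R 4.3.3 (trend and robust options), among genes that reached 10 in a number of libraries equal to the size of the smallest group, with Benjamini-Hochberg adjustment over all genes and a threshold of 0.05. Fits on the recovered reads used edgeR 4.0.16, which called 4196 genes higher and 3860 lower with the combination at 24 h and 5033 and 4982 at 72 h, and DESeq2 1.42.0. Groups came from the labels.

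In the rosiglitazone table the library values of 1654 entries did not match the deposited mean; 1175 were realigned by a unique match of the mean, 1 of them the member Tpi1, and 119 were left out. In both other tables of that experiment, 26 entries with dates for names were left out. Fits were tested on simulated data. Of the context lists, the genes with the lowest adjusted p and a mean of at least 50 could be named; library values were due for the 5 largest called changes, and those of further members were added after their values were seen. Members and lists were chosen with earlier results of these data known. Alternatives were scaling, pseudocount, filter, the groups in the fit, another table, and leaving out each library.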

Additional observations from a re-analysis of the deposited data

Results flagged for a closer look

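Each gene with its values in every library was examined within each group of 4 to 6 samples, in 53 sets of values, and a single library lay apart in 5 of them; chance alone gives about 1 in 20. Pdk1 had 4894 in combination replicate 4 of the 1-month tumours, while the others lay between 3979 and 4042. Ankrd37 had 647 in DMSO replicate 5 of the first cell experiment in the table of the combination, with the others at 767 to 777, and 655 in the table of trametinib, with the others at 776 to 787; these are the same library. Eno1 had 7394 in combination 24 h replicate 1 of the second cell experiment, with the others at 6130.0 to 6309, and 9953 in ATRA 24 h replicate 4, with the others at 10319 to 10524.

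The change with the combination in the second cell experiment differed between 72 h and 24 h for 22 of the 35 genes by the test of the difference. The 5 of largest size were Aldoc (-1.41), Hk2 (-1.21), Adm (-1.14), Ndrg1 (-0.98) and Slc2a1 (-0.86). The change at 72 h differed between the first and the second cell experiment for 21 genes, with the largest differences in Car9 (-2.30), Adm (1.25), Bnip3 (-1.23), Egln3 (-1.21) and Pfkp (-1.11).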

How the results depend on the processing

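Of 4144 re-computed values of single genes, 3853 kept their direction and side of the threshold, 213 lost the call, 78 gained one and 0 reversed. With each library left out in turn, the calls among the 35 genes were 6 to 11 at 1 month against vehicle, 1 to 4 at 1 month against no BBN, 9 to 16 for vehicle tumours against no BBN, 4 to 5 at 5 days, 31 to 32 with trametinib and 30 to 32 with the combination in the first cell experiment. They were 24 to 27 and 28 to 29 with the combination at 24 h and 72 h in the second, 3 to 10 and 5 to 9 with ATRA at 24 h and 72 h, and 9 to 16 between times in DMSO. For the differences they were 0 to 1 (ATRA, 72 h minus 24 h), 0 to 4 (1 month minus 5 days), 17 to 21 (combination, 72 h minus 24 h) and 20 to 24 (first minus second experiment). The shares of all genes called with single libraries left out are not given beside these counts. The cause was not tested for the other counts that moved. ATRA at 24 h gave 16 calls without both libraries that stand apart, ATRA at 72 h 3 with only the compared groups fitted, and DMSO 8 in the table deposited with ATRA. The ATRA difference gave 3 calls by limma and 2 by edgeR without both libraries. The difference of 1 month minus 5 days gave 2 calls with quantile normalisation and 4 without vehicle replicate 2 of both durations. Leaving out those libraries was chosen after seeing the data. No paired analysis was possible because the labels give no replicate numbers that tie samples across groups. Depth limits low genes most in the second cell experiment, where Slc16a3, Aldoc and Car9 had few reads.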

Other observations

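Other genes of glucose use moved in the 1-month tissue. Of 31 other glycolysis and glucose handling genes tested, 8 rose and 4 fell in treated against vehicle tumours, and 4 rose and 12 fell in vehicle tumours against bladder without BBN. Over all genes 10.1% rose and 13.7% fell in the comparison with vehicle, and 15% rose and 11.4% fell in that with no BBN. Hk3, a hexokinase of myeloid cells, changed by -3.55 ± 0.39 (SE) in treated and by 2.53 ± 0.42 in vehicle tumours in these comparisons, and the glucose transporter Slc2a6 by -3.09 ± 0.38 and 3.71 ± 0.41. Slc2a6 fell by 2.74 ± 0.41 at 5 days and rose by 3.21 ± 0.12 in BBN963 cells with the combination in the first experiment. The macrophage and neutrophil markers given above moved with these genes in tissue, and their part was not tested.

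Some pyruvate dehydrogenase kinases, which limit the use of pyruvate in the mitochondria, moved beside Pdk1 in tissue. Of 11 genes of these kinases and the complex, 4 rose and none fell in treated against vehicle tumours at 1 month, and none rose and 4 fell in vehicle tumours against bladder without BBN, beside the same shares over all genes. Pdk4, which is also a PPARG target, changed by 1.74 ± 0.38 and -4.05 ± 0.40, and Pdk2 by 1.25 ± 0.27 and -1.54 ± 0.29. These comparisons share the vehicle samples. Against bladder without BBN, Pdk4 fell by 2.31 ± 0.38 in treated tumours.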
